A study of Mus musculus with 45 samples.

Results

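Imprinted genes are described here across 3 tissues, 2 mouse strains and 2 diets. The genes were taken from a list of 10 symbols (Nnat, Mest, Peg3, Plagl1, Igf2, H19, Cdkn1c, Grb10, Ndn and Dlk1), and their probe sets were those annotated to that single symbol. By that rule 9 genes with 16 probe sets were measured, out of 8251 genes on the array, and 4 of them had 1 probe set each. No H19 value is given, because its probe set carries 2 symbols. The genes were chosen by their measured values in these arrays, above all the lower Nnat signal of fat tissue on the high-fat diet. Every diet difference in fat below, and its comparison between the strains, is therefore a description without a test. The same holds for the strain differences of Nnat in fat, and the other comparisons were tested.

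The study measured RNA on 45 Affymetrix arrays from liver, skeletal muscle and epididymal fat, the fat pad beside the epididymis. The mice were C57Bl/6 (B6) or 129S6/SvEvTac (129S6) animals on a high-fat or a low-fat diet, and tissue was taken at 6 months of age. Muscle had 4 arrays in the B6 high-fat, 129S6 high-fat and 129S6 low-fat groups and 3 in the B6 low-fat group, and liver had 4 in each group. In fat, B6 had 4 arrays on each diet and 129S6 had 3. Each array carried RNA pooled from 2 to 3 mice, so the spread between arrays is a spread between pools. The composition of the high-fat diet and how long it was fed are not stated in the labels. Values are log2 expression after robust multi-array averaging (RMA), and differences are in log2 units, with high-fat minus low-fat for diet and B6 minus 129S6 for strain. A difference was called where limma's adjusted p, taken over all 8251 genes, was under 0.05.

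The tissue labels were set against marker genes. Alb, a hepatocyte gene, had group means of 13.18 to 13.37 in liver, Ckm, a muscle enzyme, 10.96 to 11.97 in muscle, and Adipoq, an adipocyte hormone, 11.76 to 12.74 in fat. Markers of the neighbouring epididymis were high in some fat arrays: Gpx5, a secreted epididymal protein, ranged up to 11.85 in B6 high-fat and 11.91 in B6 low-fat arrays, but was 5.48 to 5.87 in 129S6 high-fat arrays and 5.57 to 10.81 in 129S6 low-fat arrays. The testis gene Prm1 followed another order. It was 11.29 in B6 low-fat replicate 4, where Gpx5 was 5.45, and 6.84 in replicate 3, where Gpx5 was 11.88. In 129S6 high-fat arrays Prm1 ranged up to 8.45, so Gpx5 alone does not describe these markers. Whole tissue was measured, so fewer cells of a type and less RNA per cell cannot be told apart.

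An imprinted gene is expressed mainly from the allele inherited from a single parent, and DNA methylation laid down in the germ line marks the parental origin of the alleles. Many imprinted genes act on growth, nutrient supply and fat storage, and several form a network that is active in the embryo and is turned down after birth. Nnat (neuronatin), a small membrane protein of the endoplasmic reticulum, and Mest, a hydrolase-like protein of the same organelle long followed as a marker of fat expansion in mice, are both expressed from the paternal allele. Igf2 is a paternally expressed growth factor, and Grb10 is an adaptor that restrains insulin and IGF1 receptor signalling. Dlk1 (also called Pref-1) holds preadipocytes back from differentiation. Peg3, Plagl1 and Ndn are nuclear regulators, of which Peg3 and Plagl1 have zinc fingers, and Cdkn1c is a cyclin-dependent kinase inhibitor expressed from the maternal allele.

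The promoters of the leading pair of genes are shown because imprinting is read at CG dinucleotides, the bases that DNA methylation marks. Each is RefSeq sequence of build GRCm38.p6, read 5′ to 3′ on the gene's strand over 250 bases before to 50 bases after the transcription start, with each CG in capitals. The Nnat window lies at chr2:157559828-157560127 on the plus strand, inside the gene Blcap, within which RefSeq places Nnat. The Mest windows lie at chr6:30733256-30733555 and chr6:30737800-30738099 on the plus strand, and a further annotated Mest start gives a window shifted by a few bases.
Nnat: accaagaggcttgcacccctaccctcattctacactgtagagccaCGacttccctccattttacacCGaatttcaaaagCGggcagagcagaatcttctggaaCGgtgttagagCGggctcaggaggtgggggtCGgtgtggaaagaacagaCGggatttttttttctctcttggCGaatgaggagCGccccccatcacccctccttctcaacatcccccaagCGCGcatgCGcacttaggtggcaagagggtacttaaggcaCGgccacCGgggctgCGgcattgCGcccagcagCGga
Mest, upstream start: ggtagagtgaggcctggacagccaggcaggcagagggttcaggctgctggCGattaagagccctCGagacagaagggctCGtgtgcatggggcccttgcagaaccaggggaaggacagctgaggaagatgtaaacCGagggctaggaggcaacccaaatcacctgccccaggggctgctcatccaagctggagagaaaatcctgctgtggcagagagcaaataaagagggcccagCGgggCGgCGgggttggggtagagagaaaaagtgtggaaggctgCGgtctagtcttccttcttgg
Mest, downstream start: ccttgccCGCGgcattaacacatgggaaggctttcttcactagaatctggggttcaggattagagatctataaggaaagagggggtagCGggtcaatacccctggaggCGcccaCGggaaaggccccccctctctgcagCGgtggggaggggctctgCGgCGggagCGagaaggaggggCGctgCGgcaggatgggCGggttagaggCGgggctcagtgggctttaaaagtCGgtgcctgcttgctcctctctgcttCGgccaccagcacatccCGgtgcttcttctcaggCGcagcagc
The Nnat window holds 17 CG, the upstream Mest window 8 and the downstream Mest window 17, against a median of 7 over 32841 RefSeq promoters of the same length. Promoters were listed for 8 of the 9 genes, and 12 of their 14 windows held more CG than that median, with 2 to 45 per window. The GC-rich motif GGGCGG was found on either strand in 8 of the 14 windows and in 35.7% of all promoters. The downstream Mest window and its shifted copy both count among the 14, each with 17 CG and a GGGCGG, so the windows are not independent. TATAAA was found in 0 of the 14 and in 13.6% of all. A match is only a match of letters, and the arrays measured neither methylation nor binding.

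Nnat and Mest were the members most strongly set apart by tissue. Nnat averaged 8.37 ± 2.03 in fat (SD over 14 arrays), 5.76 ± 0.59 in muscle (15 arrays) and 4.62 ± 0.15 in liver (16 arrays). Mest averaged 8.54 ± 0.82 in fat, 4.68 ± 0.50 in muscle and 4.31 ± 0.22 in liver. Both were among the dimmest 1 in 3 genes in liver and in muscle, where a signal may be close to background, and RMA gives no detection call. In the order of the 12 groups, the highest Nnat group was 129S6 low-fat fat (11.14), followed by B6 low-fat fat (9.22) and 129S6 high-fat fat (7.38), and the ranges of these groups did not overlap. Below them, 129S6 high-fat fat, B6 and 129S6 low-fat muscle and B6 high-fat fat (6.19) overlapped with their neighbours. For Mest the 4 fat groups were the highest, led by 129S6 high-fat fat (9.36). Its lowest fat group, 129S6 low-fat (7.61), stood apart from the highest muscle group, 129S6 high-fat (5.24).

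**Figure D1:**
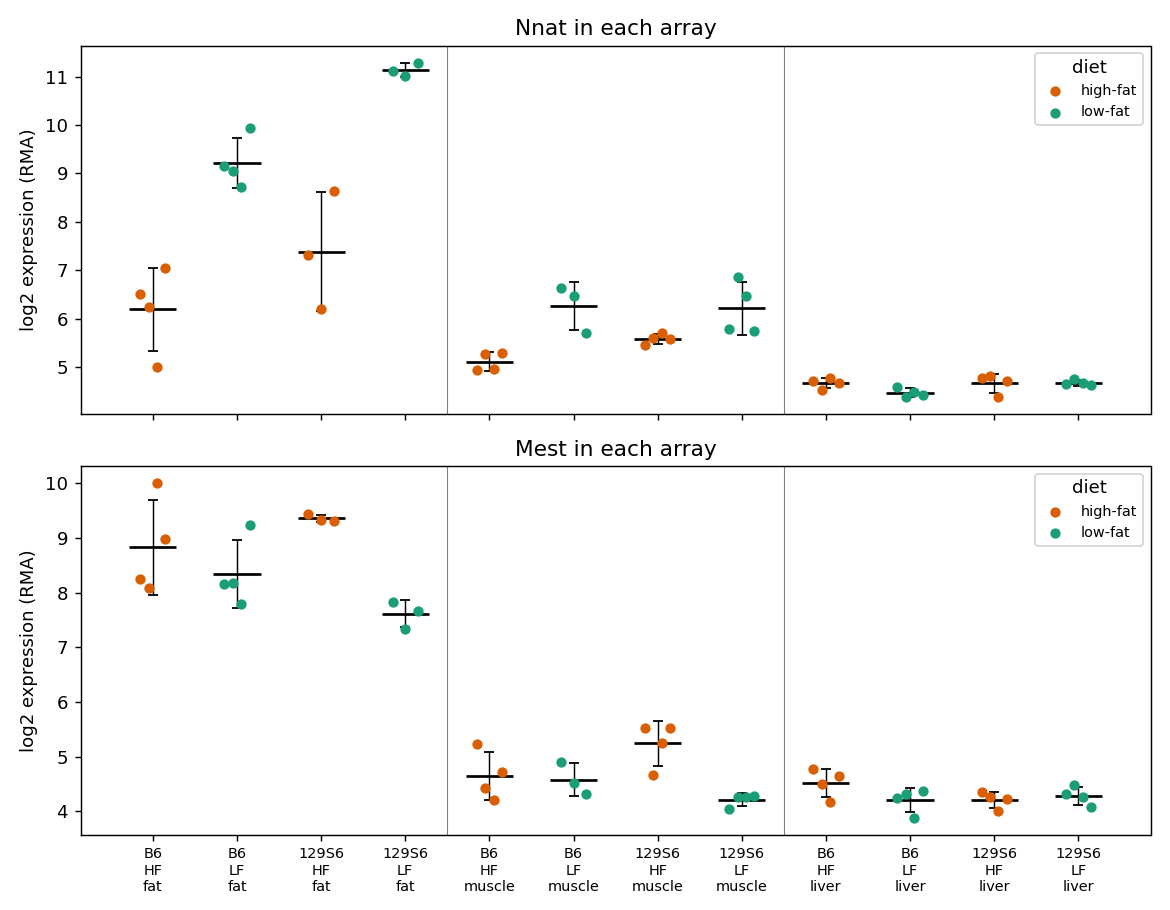
Nnat (top) and Mest (bottom) log2 expression in every array, by tissue, strain and diet (HF high-fat, LF low-fat), with the group mean as a bar and the SD as whiskers. In fat, all high-fat arrays of a strain lie below its low-fat arrays for Nnat, and Mest is separated by diet in 129S6.

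The other members differed less between tissues. Igf2 was highest in muscle, at 9.12 ± 0.24, with 8.46 ± 0.26 in fat and 8.21 ± 0.25 in liver. Cdkn1c averaged 6.19 ± 0.51 in muscle, 5.71 ± 0.38 in fat and 4.57 ± 0.14 in liver, and its 4 liver groups were its 4 lowest. Ndn was highest in fat, at 7.21 ± 0.60, with 6.47 ± 0.21 in muscle and 6.11 ± 0.17 in liver. Dlk1 (6.97 to 7.17), Grb10 (5.80 to 5.97) and Plagl1 (4.76 to 5.32) had tissue means close to each other. The brightest Peg3 probe set was 96765_at in fat and 161316_f_at in muscle and liver, so Peg3 is given by probe set.

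**Figure D2:**
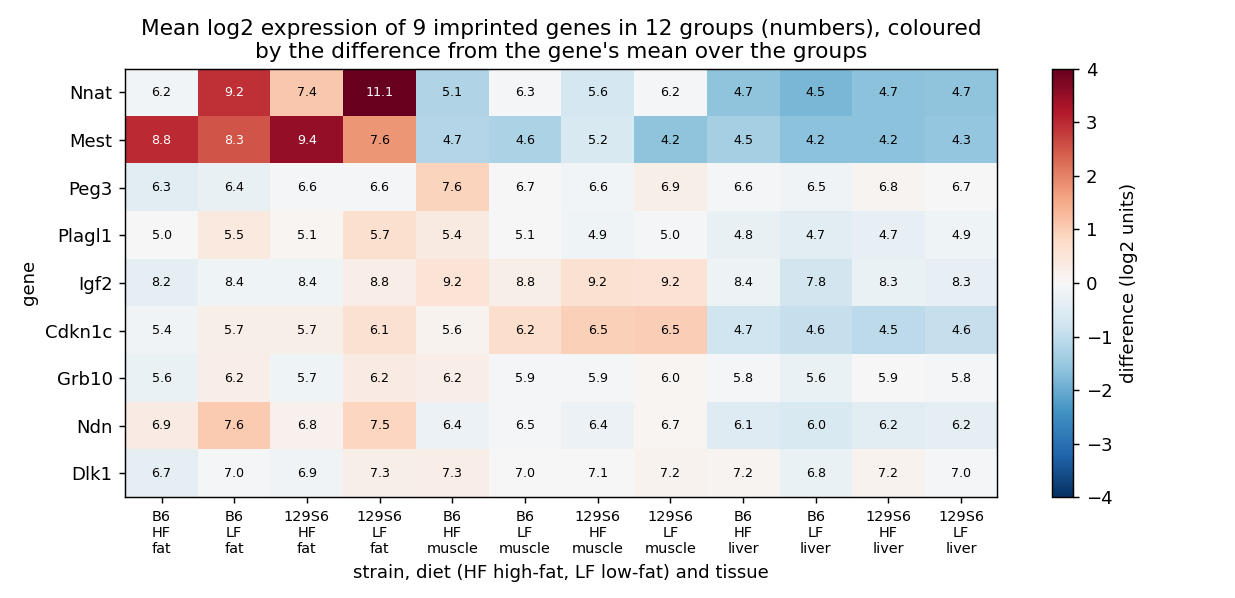
Mean log2 expression of the 9 genes (rows) in the 12 groups (columns), printed in each cell and coloured by the difference from the gene's mean over the groups. Peg3 is shown by probe set 161316_f_at in all tissues. Nnat and Mest carry the strongest colours, both in fat.

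In epididymal fat, Nnat was the member with the widest diet difference in both strains. It measured 6.50, 6.23, 5.00 and 7.04 in the B6 high-fat arrays, against 9.15, 9.06, 8.73 and 9.94 in the B6 low-fat arrays. It measured 7.31, 6.19 and 8.64 in the 129S6 high-fat arrays, against 11.11, 11.01 and 11.29 in the 129S6 low-fat arrays. No high-fat array reached the lowest low-fat array of its strain. The difference was -3.03 ± 0.49 in B6 (SE of the fit) and -3.76 ± 0.56 in 129S6, which is 0.123 and 0.0739 times the low-fat level. These values chose the gene, and the diet differences of the strains share no arrays. The strains' diet differences differed by 0.73 ± 0.74 (B6 minus 129S6), given without a test.

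Mest, in contrast to Nnat, was higher on the high-fat diet in 129S6. It measured 9.43, 9.33 and 9.31 in 129S6 high-fat fat, against 7.82, 7.34 and 7.67 in 129S6 low-fat fat, a difference of 1.75 ± 0.44. In B6 it measured 8.25, 8.09, 10.00 and 8.98 on high fat, against 8.16, 8.17, 7.79 and 9.24 on low fat, a difference of 0.49 ± 0.38, and the B6 groups overlapped. The strains' diet differences in Mest differed by -1.26 ± 0.58 (B6 minus 129S6), again without a test. Limma called 0% of all genes for diet by strain in fat, given as background only. In B6 the sign rested on high-fat replicates 7 and 8, and it was -0.17 without them.

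Grb10, Plagl1, Cdkn1c, Igf2 and Dlk1 had lower means on high fat in both strains. The B6 differences were -0.52 ± 0.17 for Grb10, -0.41 ± 0.13 for Plagl1, -0.37 ± 0.21 for Cdkn1c, -0.33 ± 0.16 for Dlk1 and -0.18 ± 0.11 for Igf2. The 129S6 differences were -0.49 ± 0.20, -0.56 ± 0.15, -0.37 ± 0.24, -0.38 ± 0.18 and -0.41 ± 0.13 for Grb10, Plagl1, Cdkn1c, Dlk1 and Igf2 in that order. The dimmer Igf2 probe set 98622_at differed by -0.01 and 0.17, so Igf2 had a lower mean in both strains by its brighter probe set only. The dimmest Grb10 probe set 95450_at differed by -0.06 and 0.01. Read at the brightest probe set of each gene, 7 of the 9 members had a negative difference in each strain, although Ndn and Peg3 change sign with the probe set. The median over the members was -0.37 in B6 and -0.41 in 129S6, and over all genes -0.027 and 0.006. High-fat and low-fat arrays did not overlap for 1 of 9 members in B6 (8.61% of all genes) and for 7 of 9 in 129S6 (28.4%). Limma called 0.279% of all genes for diet in B6 fat and 0.751% in 129S6 fat, given as background only.

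**Figure D3:**
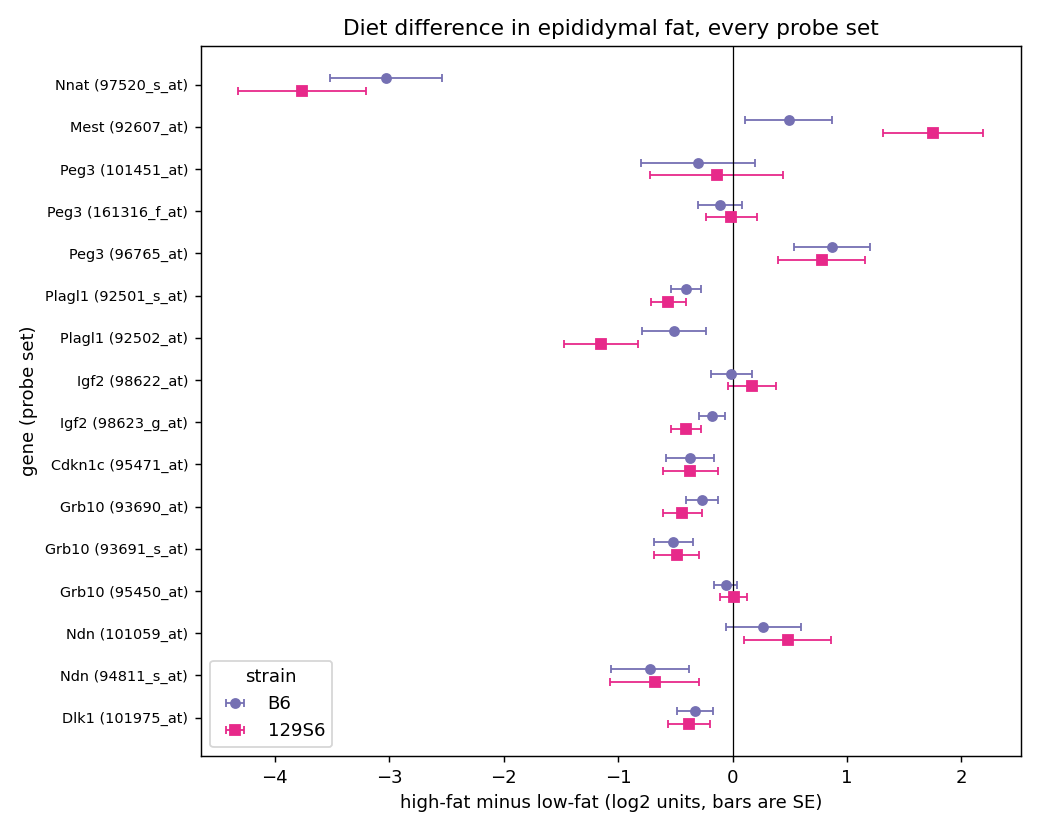
Diet difference in epididymal fat (high-fat minus low-fat, log2 units, bars are SE) for all 16 probe sets, with B6 as circles and 129S6 as squares. Nnat lies furthest left in both strains, and the probe sets of Ndn and of Peg3 do not lie on the same side of 0.

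The probe sets of Ndn and Peg3 disagreed in fat. For Ndn, probe set 94811_s_at differed by -0.72 ± 0.34 in B6 and -0.68 ± 0.39 in 129S6, and probe set 101059_at by 0.27 and 0.48. For Peg3, 96765_at differed by 0.87 ± 0.33 and 0.78 ± 0.38, 101451_at by -0.30 and -0.14, and 161316_f_at by -0.11 and -0.01. The disagreement was widest in B6 high-fat replicate 7, where Ndn read 5.82 by 94811_s_at and 8.33 by 101059_at. No direction is therefore given for these genes in fat.

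A control for RNA integrity moved with diet in fat. The signal of the Gapdh 3′ control minus that of its 5′ control, which is near 0 for intact RNA, was 0.03 to 6.03 in B6 high-fat arrays, against -0.06 to 0.06 in B6 low-fat arrays. It was 0.37 to 5.93 in 129S6 high-fat arrays, against 0.07 to 0.24 in 129S6 low-fat arrays. Without the arrays above 2, Nnat in B6 averaged 6.36 on high fat (2 arrays) and 9.22 on low fat, a difference of -2.86. In 129S6 a single high-fat array then remained, at 8.64 against a low-fat mean of 11.14, a difference of -2.49. Mest then differed by 1.70 in 129S6 and Ndn (94811_s_at) by -0.47 in B6 and 0.07 in 129S6. Macrophage markers moved with diet as well: the mean of 12 genes was 8.74 to 9.32 in B6 high-fat and 8.23 to 8.79 in B6 low-fat arrays, and 8.23 to 8.78 in 129S6 high-fat and 7.08 to 7.50 in 129S6 low-fat arrays. Of the 12 adipocyte genes listed, 9 were measured, with a mean of 10.15 to 10.43 in B6 high-fat and 10.26 to 10.74 in B6 low-fat arrays, and 9.99 to 10.73 in 129S6 high-fat and 10.78 to 10.99 in 129S6 low-fat arrays. Without the arrays above 2, the B6 differences were -0.19 for Grb10, -0.40 for Plagl1, -0.61 for Cdkn1c, -0.11 for Dlk1 and -0.05 for Igf2. In 129S6, with a single high-fat array left, they were -0.39, -0.76, -0.60, -0.45 and -0.53 in that order. With the Gapdh signal as a covariate, the B6 differences were -0.34, -0.47, -0.59, -0.22 and -0.17 in the same order. Those of 129S6 were then -0.17, -0.66, -0.76, -0.18 and -0.38. The part of RNA integrity and of cell types in the diet differences was not tested.

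**Figure D4:**
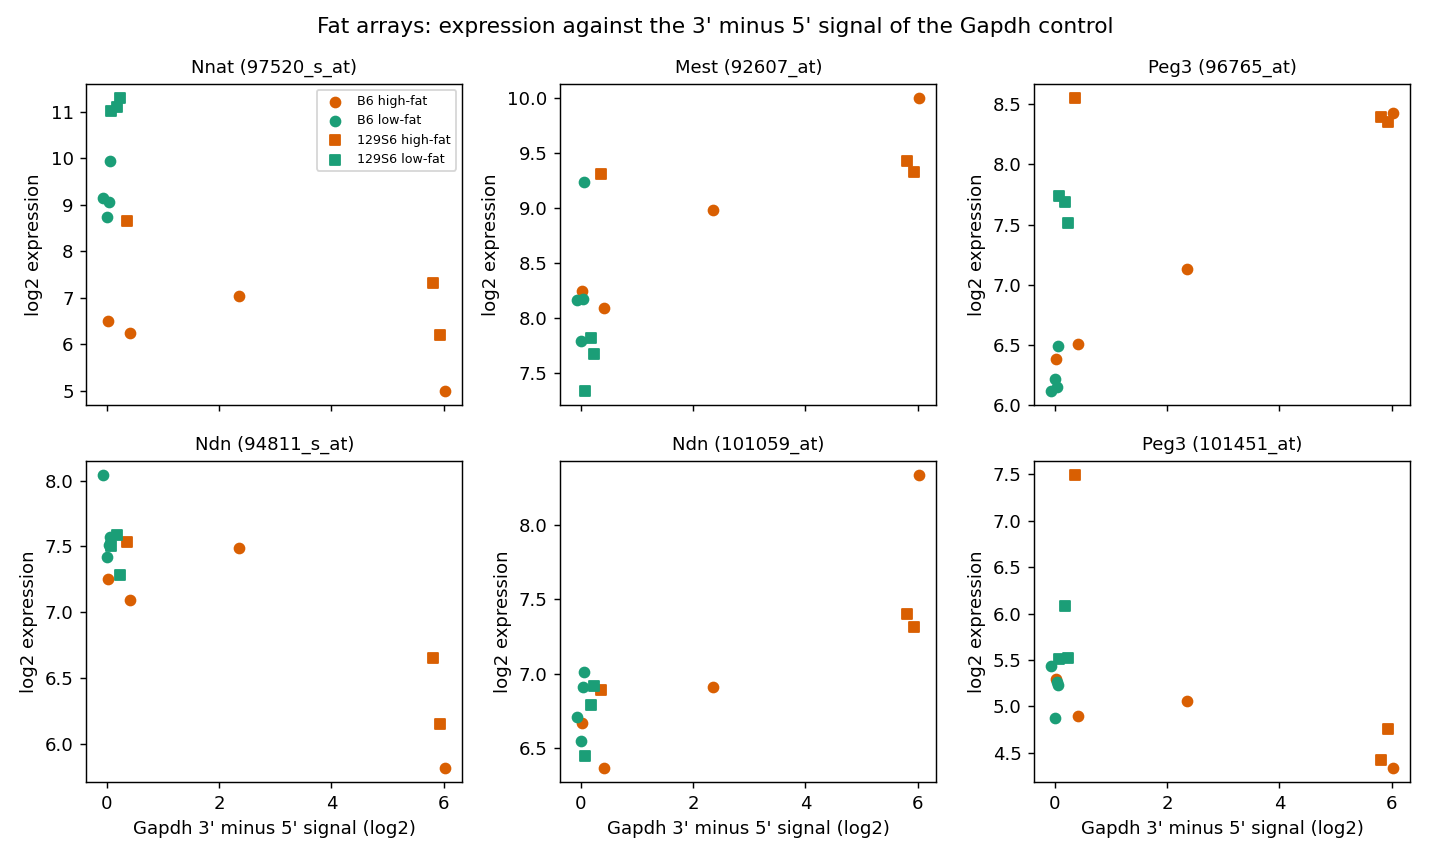
Log2 expression of Nnat, Mest, Peg3 and Ndn probe sets in the 14 fat arrays against the Gapdh 3′ minus 5′ control signal. Low-fat arrays all lie near 0 on the x axis, and the high-fat arrays range from near 0 to 6.03.

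Strain differences in fat were tested, except for Nnat, whose fat values chose the genes. None of the other members was called on the high-fat diet (0.436% of all genes were) or on the low-fat diet (1.08%). On low fat, Igf2 and Peg3 had an unadjusted p under 0.05, both lower in B6. Between B6 and 129S6 low-fat arrays, Igf2 differed by -0.44 ± 0.12 (limma adjusted p = 0.142) and Peg3 (96765_at) by -1.40 ± 0.36 (adjusted p = 0.107). Nnat differed by -1.92 ± 0.53, given without a test. The groups did not overlap for Nnat, Igf2, Peg3 and Dlk1, 4 members lower in B6, against 14% of all genes lower without overlap. Igf2 measured 8.30, 8.42, 8.47 and 8.44 in B6 low-fat arrays, against 8.81, 8.90 and 8.84 in 129S6 low-fat arrays. These are values of its brighter probe set. The dimmer Igf2 probe set 98622_at differed by only -0.1 ± 0.2 between the same groups, with overlap. Peg3 measured 6.12, 6.15, 6.22 and 6.49 in B6 low-fat arrays, against 7.69, 7.74 and 7.51 in 129S6 low-fat arrays, although its probe set 161316_f_at differed by -0.24 only. Markers of other cells moved with strain on low fat: 7 of 7 testis and epididymis genes had a higher mean in B6 (median difference 2.09, 0 called), 12 of 12 macrophage genes a higher one (1.27, 4 called) and 9 of 9 hepatocyte genes a lower one (-1.05, 2 called). Of 9 adipocyte genes, 7 had a lower mean in B6 (median -0.70), and 1 was called, higher. Their part in the strain differences was not tested.

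When only the B6 and 129S6 low-fat arrays were fitted, limma's adjusted p was 0.000152 for Peg3 and 0.0124 for Igf2. Peg3 and Igf2 were read at their brightest probe sets. No p is given for Nnat, because the fat values of Nnat chose the genes. The share of all genes called in this fit is not given, so these calls are not set against a background. Without the arrays above 2 in the Gapdh signal, Nnat and Peg3 differed by -2.28 and -2.10 on high fat, with 2 arrays left in the B6 and 1 in the 129S6 high-fat group. No p is given there, because the spread of the lone 129S6 array is only assumed to be like that of the other groups. In the limma fit with all arrays, the high-fat difference was -1.32 ± 0.36 for Peg3 (adjusted p = 0.192) and -1.19 ± 0.53 for Nnat, given without a test. By runs of array numbers, every B6 array shares a run with replicate 9 of the 129S6 low-fat group, and the other 129S6 arrays form another, so strain and run cannot be told apart on high fat. Within the shared run, the B6 low-fat arrays and the single 129S6 array differed by -1.45 in Peg3, where the single array gives no spread of its own.

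In muscle, Nnat fell with high fat in B6. It measured 4.94, 5.27, 4.95 and 5.29 in B6 high-fat muscle, against 6.63, 6.46 and 5.70 in B6 low-fat muscle, without overlap. The difference was -1.15 ± 0.26, or 0.451 times the low-fat level (limma adjusted p = 0.0130). In 129S6 it measured 5.46, 5.59, 5.71 and 5.58 on high fat, against 5.78, 6.87, 6.46 and 5.75 on low fat, again without overlap. That difference of -0.63 ± 0.24 did not pass (adjusted p = 0.992, unadjusted p = 0.0212). The strains' diet differences in Nnat differed by -0.52 ± 0.36 (adjusted p = 0.281). Adipocyte genes moved the same way in B6 muscle: 7 of 9 had a lower mean on high fat (median -0.37, against 0.164 over all genes), and 3 were called lower. Their mean was 7.20 to 7.52 in B6 high-fat arrays, against 7.69 to 8.16 in B6 low-fat arrays, without overlap. In 129S6 muscle 6 of these 9 genes had a lower mean on high fat (median -0.02, against -0.013 over all genes), and 0 were called. Their mean there was 7.51 to 7.87 on high fat and 7.46 to 7.84 on low fat. The part of adipocyte genes in the Nnat differences was not tested.

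Mest in muscle read higher on high fat in 129S6. It measured 5.53, 4.66, 5.25 and 5.53 in 129S6 high-fat muscle, against 4.05, 4.26, 4.27 and 4.29 in 129S6 low-fat muscle, without overlap. The difference of 1.02 ± 0.23 had an unadjusted p of 0.000446 and an adjusted p of 0.992, since limma called 0 genes (0%) for diet in 129S6 muscle. In B6, Mest measured 5.23, 4.43, 4.21 and 4.72 on high fat, against 4.91, 4.51 and 4.32 on low fat, with overlap and a difference of 0.07 ± 0.24. The strains' diet differences in Mest differed by -0.95 ± 0.33, which did not pass (adjusted p = 0.0797). In 129S6 muscle, read at the brightest probe set of each gene, 3 members had groups without overlap, against 1.9% of all genes. They were Mest, Nnat and Ndn (94811_s_at, -0.31 ± 0.13), and these 3 were also the members with an unadjusted p under 0.05. The dimmer Ndn probe set 101059_at differed by -0.03 ± 0.24 between the same groups, with overlap. The Ndn difference was thus seen at 94811_s_at only.

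Of the 9 members, 2 were called for diet in B6 muscle, Nnat and Peg3, against 26.8% of all genes, so their share is near the background. Peg3 (161316_f_at) rose, with 7.84, 7.70, 7.24 and 7.56 in B6 high-fat arrays, against 6.39, 6.66 and 6.94 in B6 low-fat arrays, a difference of 0.92 ± 0.30 (adjusted p = 0.0388). The same probe set was higher in B6 than in 129S6 on high fat, where 129S6 measured 6.58, 6.70, 6.53 and 6.49, a difference of 1.01 ± 0.28 (adjusted p = 0.0186). Its probe set 96765_at differed by 0.08 ± 0.18 for diet in B6 and by -0.40 ± 0.17 for strain on high fat, while probe set 101451_at differed by 0.59 ± 0.13 and 1.00 ± 0.12 (adjusted p = 0.0122 and 0.000497 in a fit of all probe sets). The direction of Peg3 thus turned with the probe set for strain. For diet every probe set had a positive difference, which at 96765_at was within its SE. The dimmer Igf2 probe set 98622_at rose by 0.81 ± 0.26 in B6 muscle (adjusted p = 0.0359 in a fit of all probe sets), while the brighter one, at 0.32 ± 0.17, did not pass (adjusted p = 0.149).

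Between the strains in high-fat muscle, 3 of 9 members were called, against 29.3% of all genes. Besides Peg3, Plagl1 was higher in B6, with 5.21, 5.67, 5.53 and 5.25 in B6 high-fat arrays, against 5.00, 4.93, 4.82 and 4.78 in 129S6 high-fat arrays, a difference of 0.54 ± 0.15 (adjusted p = 0.0226). Cdkn1c was lower in B6, with 6.37, 5.29, 5.11 and 5.81 in B6 high-fat arrays, against 6.61, 6.23, 6.36 and 6.59 in 129S6 high-fat arrays, a difference of -0.80 ± 0.26 (adjusted p = 0.0365). Plagl1 did not overlap, and Cdkn1c did, through B6 replicate 5. On low fat, 0 members were called between the strains (0.279% of all genes) and 0 had an unadjusted p under 0.05. For diet by strain in muscle 0 members were called (3.19% of all genes), and 3 had an unadjusted p under 0.05, with Peg3 at 1.26 ± 0.41 (adjusted p = 0.0701).

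The B6 high-fat muscle arrays stood apart as a group. The SD of the log2 values within an array was 1.58 to 1.70 in B6 high-fat arrays, against 1.80 to 1.87 in B6 low-fat arrays. In 129S6 it was 1.79 to 1.84 on high fat and 1.56 to 1.85 on low fat, where the lowest was replicate 9. The Gapdh 3′ minus 5′ signal was 1.19 to 3.36 in B6 high-fat muscle, against 0.350 to 0.807 in B6 low-fat muscle, without overlap. The mean of 10 skeletal muscle genes was 10.10 to 11.04 in B6 high-fat arrays, against 11.60 to 11.75 in B6 low-fat arrays. In 129S6 it was 11.63 to 11.67 on high fat and 9.89 to 11.72 on low fat. With the array's spread as a covariate, every call in muscle was lost: Nnat differed by -0.67 (adjusted p = 0.355), Peg3 by 0.08 for diet and 0.24 for strain, Plagl1 by 0.17 and Cdkn1c by -0.17. Leaving out the arrays above 2 in the Gapdh signal kept a single B6 high-fat muscle array, replicate 7, so no calls are given for that fit. Over the alternative fits, apart from those leaving out each array, the Nnat diet difference in B6 muscle was -1.31 to -0.67. In 129S6 low-fat replicate 9, Peg3 (161316_f_at) read 8.02, above the B6 high-fat arrays. Without B6 low-fat replicate 13 the Nnat difference in muscle was -0.97 (adjusted p = 0.0762). The Peg3 diet call was lost in 7 of 15 fits that left out an array, at differences of 0.79 to 0.93, and the strain call in 2, without B6 high-fat replicate 6 (0.97) or 129S6 high-fat replicate 4 (0.98). The Plagl1 call was lost in 4 of 15, without replicates 6 or 7 of B6 or 3 or 4 of 129S6 on high fat, and the Cdkn1c call in 5, without those or 129S6 high-fat replicate 1.

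In liver, Igf2 and Dlk1 rose with high fat in B6, 2 of the 9 members, against 18.2% of all genes called and 6.21% called higher. Igf2 (98623_g_at) measured 8.31, 8.29, 8.48 and 8.51 in B6 high-fat liver, against 8.00, 7.91, 7.81 and 7.68 in B6 low-fat liver. The groups did not overlap, and the difference was 0.55 ± 0.10, or 1.46-fold (limma adjusted p = 0.00107). The dimmer Igf2 probe set 98622_at also rose, by 0.33 ± 0.11 (adjusted p = 0.0483 in a fit of all probe sets). Dlk1 measured 7.06, 7.06, 7.42 and 7.13 in B6 high-fat liver, against 6.72, 6.88, 6.80 and 6.76 in B6 low-fat liver, a difference of 0.38 ± 0.12 (adjusted p = 0.0351) without overlap. Read at the brightest probe set of each gene, all 9 members had a positive difference, with a median of 0.19 against 0.017 over all genes. Other probe sets went the other way: Ndn 101059_at differed by -0.13 and Peg3 101451_at by -0.01. Grb10 95450_at measured 3.67 on high fat and 3.76 on low fat. The remaining probe sets had higher means on high fat. In liver 4 of the 9 members were among the dimmest 1 in 3 genes.

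In 129S6 liver, 0 of the 9 members were called for diet, against 0.23% of all genes, and 0 had an unadjusted p under 0.05. Igf2 measured 8.43, 8.27, 8.21 and 8.43 in 129S6 high-fat liver, against 8.31, 8.41, 8.08 and 8.23 in 129S6 low-fat liver, a difference of 0.08 ± 0.10. The strains' diet differences in Igf2 differed by 0.47 ± 0.14, just above the threshold (adjusted p = 0.0541), and 0 members were called for diet by strain in liver (5.49% of all genes), with 2 at an unadjusted p under 0.05. Between the strains on low fat, Igf2 was lower in B6, with a difference of -0.41 ± 0.10 (adjusted p = 0.0103), the 1 call among 9 members, against 13.8% of all genes. On high fat, Igf2 differed by 0.06 ± 0.10 between the strains, and 0 members were called (5.16% of all genes), with 2 at an unadjusted p under 0.05.

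The Igf2 liver calls rest on the B6 low-fat arrays, the group with the lowest Igf2. These arrays form a run of array numbers of their own, so group and run cannot be told apart. Their Gapdh 3′ minus 5′ signal was 0.824 to 1.69, against 0.225 to 0.346 in the B6 high-fat arrays, and the SD within an array was 1.91 to 1.98, against 1.84 to 1.88. With that SD as a covariate, the differences were 0.31 for Igf2 with diet (adjusted p = 0.0646), 0.21 for Dlk1 (adjusted p = 0.403) and -0.17 for Igf2 with strain (adjusted p = 0.372). With the Gapdh signal as a covariate, Dlk1 differed by 0.22 (adjusted p = 0.125). The Dlk1 call was lost in 5 of 16 fits that left out an array, at differences of 0.29 to 0.39. The Igf2 calls for diet and for strain were kept when any of the 16 liver arrays was left out. The strain call was lost at the dimmer probe set 98622_at, which differed by -0.25 (adjusted p = 0.158 in a fit of all probe sets), and when only the 2 groups were fitted (-0.41, adjusted p = 0.0545).

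**Figure D5:**
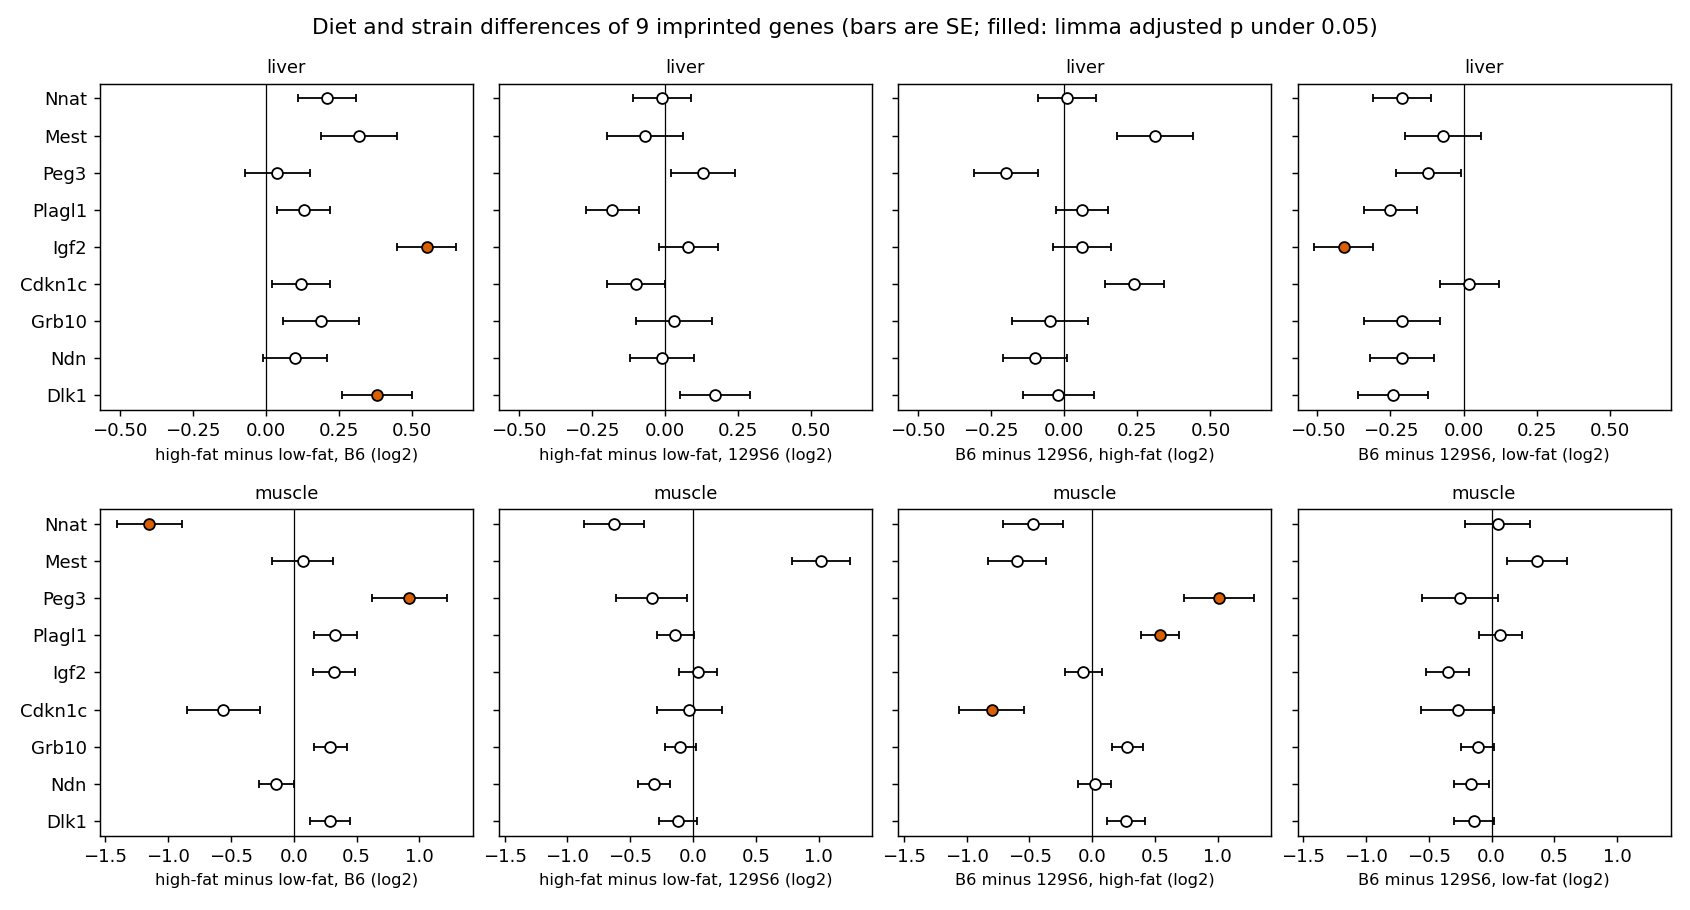
Differences of the 9 genes in liver (top) and muscle (bottom), in log2 units with SE bars: high-fat minus low-fat in B6 and 129S6, then B6 minus 129S6 on the high-fat and on the low-fat diet. Filled points passed limma's adjusted p of 0.05: Igf2 and Dlk1 for B6 diet and Igf2 for low-fat strain in liver, and Nnat, Peg3, Plagl1 and Cdkn1c in B6 muscle comparisons.

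Other imprinted genes were followed from a list of 60, of which 37 were measured. In B6 liver, 6 were called for diet, 2 higher and 4 lower on high fat, a share near the 18.2% of all genes. Osbpl5, a lipid transfer protein gene from the same imprinted cluster as Cdkn1c, measured 7.81 on high fat and 7.29 on low fat in B6 liver, a rise of 0.52 ± 0.09 (adjusted p = 0.000725). Its diet difference was larger in B6 than in 129S6 by 0.46 ± 0.12 (adjusted p = 0.0374). Ddc, which makes dopamine and serotonin and lies beside Grb10, measured 7.52 and 8.52, a difference of -1.01 ± 0.20 (adjusted p = 0.00284). The B6 high-fat and low-fat liver arrays share no run of array numbers, so diet and run cannot be told apart in these differences. Between the strains, Meg3, the maternally expressed noncoding RNA of the Dlk1 domain, was lower in B6 liver on both diets, at 7.56 in B6 and 8.41 in 129S6 on high fat (-0.85 ± 0.13, adjusted p = 0.00081) and 7.42 and 8.19 on low fat (-0.78 ± 0.13, adjusted p = 0.00099). On each diet the B6 and 129S6 liver arrays share no run either, so strain and run cannot be told apart there. Dlk1 itself differed between the strains by -0.02 ± 0.12 on high fat and -0.24 ± 0.12 on low fat, neither called. Without 129S6 low-fat replicate 11, whose Gapdh signal was 3.26, the low-fat difference was -0.37 and was called (adjusted p = 0.0135). In muscle, 9 of the 37 were called for diet in B6, 7 higher and 2 lower, a share near the 26.8% of all genes.

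Blcap, the host gene of Nnat, was described in fat beside it. It measured 7.68, 7.34, 6.30 and 7.95 in B6 high-fat fat, against 7.79, 7.61, 7.83 and 7.71 in B6 low-fat fat, with overlap. In 129S6 it measured 7.36, 6.74 and 8.19 on high fat, against 9.27, 8.89 and 8.90 on low fat, a difference of -1.59 ± 0.38 without overlap. The Gapdh 3′ minus 5′ signal of these 129S6 high-fat arrays was 5.81, 5.93 and 0.37 in that order. It was 6.03 in the B6 high-fat array that read 6.30. The part of RNA integrity in the Blcap values was not tested. Across all other listed imprinted genes the median diet difference in fat was 0.00 in B6 and 0.01 in 129S6.

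Partners of Igf2 and Grb10 in the insulin and IGF axis were followed from a list of 24 genes, of which 19 were measured. In B6 liver 7 were called for diet, 2 higher and 5 lower, against 18.2% of all genes. The 19 had a median difference of 0.02, against 0.017 over all genes, and 0 were called in 129S6 liver. Igfals, which carries IGFs in the blood, measured 8.38 on high fat and 9.46 on low fat in B6 liver (-1.08 ± 0.11, adjusted p = 2.15e-05), and Igf1 10.13 and 10.72 (-0.59 ± 0.13, adjusted p = 0.0061). Igf1r, the receptor through which Igf2 signals, measured 7.10 and 6.52 (0.58 ± 0.09, adjusted p = 0.000398). These B6 liver groups share no run of array numbers, so diet and run cannot be told apart here. Of 24 genes around preadipocytes and adipogenesis, 18 were measured, and 1 was called for diet in B6 liver. In fat, as a description, Cebpa, a regulator of fat cell differentiation, had means of 10.53 on high fat and 11.48 on low fat in B6 (-0.95 ± 0.61, with overlap) and 10.28 and 12.31 in 129S6 (-2.02 ± 0.70, without overlap). Its relatives Cebpb and Cebpd differed by 1.20 ± 0.36 and 0.97 ± 0.31 in B6 fat, and Pparg, the nuclear receptor that drives fat cell formation, by 0.54 ± 0.34 in 129S6 fat, each without overlap. All 14 cell cycle genes beside Cdkn1c were measured, and 4 were called in B6 muscle for diet, a share near the 26.8% of all genes, among them Cdkn1b, a close relative of Cdkn1c, at 6.29 on high fat and 5.27 on low fat (1.02 ± 0.22, adjusted p = 0.0104), in the arrays with the small spread.

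Genes with the pattern most like a member's were ranked by Pearson correlation of log2 values over the arrays of a tissue, as a description, since these arrays share strain, diet and RNA quality. Over the 14 fat arrays, Nnat was most like Ptges (0.952), Gjc1 (0.938) and Pygb (0.937), out of 5153 genes with a mean of at least 6. Mest was most like Mdfic (0.929), B2m (0.922) and Tpm4 (0.917). Over the 16 liver arrays, Igf2 was most like Gapdhs (0.97) and Osbpl5 (0.962), and Dlk1 most like Sorbs3 (0.94). Over the 15 muscle arrays, Nnat was most like Mrps11 (0.90).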

How the data were processed

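Liver, muscle and fat RNA of B6 and 129S6 mice on 2 diets was measured on 45 arrays. The authors deposited log2 values made with RMA, per the submitters' processing notes; the RMA version is not named there. There were 12488 probe sets, with log2 values of 2.26 to 14.26, array medians of 6.07 to 6.24 and no missing value. Of these, 10833 carried 1 gene symbol, and 10817 of those had their Entrez ID in RefSeq's gene table. Per tissue, the probe set with the highest mean was kept for each of 8251 genes. Limma 3.58.1 (R 4.3.3) was fitted per tissue with 1 mean per strain and diet, 2-sided, with Benjamini-Hochberg adjustment over all genes. Simulated data in which 200 genes were changed served to test the script.

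The genes, gene lists and tests were chosen with earlier results of these data known. Named were all members, genes from the up to 5 called ones per list and comparison that had the lowest adjusted p (for diet in fat, the largest differences), and the genes most like a member. Alternatives were all or specific probe sets, no genes from the dimmest 1 in 3, an intensity trend, quantile normalization, 2 groups only, array run as a block, Gapdh signal or array spread as a covariate, and leaving out each array. Arrays with a Gapdh signal above 2 or 3 were left out, and single runs were fitted, as alternatives chosen after seeing the data. Nothing says that pools share no mice, so p-values measure the spread between arrays. Precision is limited by 3 or 4 arrays a group.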

Additional observations from a re-analysis of the deposited data

Results flagged for a closer look

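In 5 of 81 groups of at least 4 arrays, a member's array lay far from the others, where chance gives about 1 in 20. In 129S6 low-fat muscle, replicate 9 read 4.05 for Mest, below the others (4.26 to 4.29), and 8.02 for Peg3 (161316_f_at), above the others (6.52 to 6.57). This is the array with the smallest spread of values in muscle. Replicate 10 of the same group read 6.89 for Ndn, above the others (6.57 to 6.62). Replicate 1 of 129S6 high-fat muscle read 9.51 for Igf2, above the others (9.09 to 9.16). Replicate 13 of B6 high-fat liver read 4.86 for Cdkn1c, above the others (4.63 to 4.64).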

How the results depend on the processing

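No paired analysis was possible because the groups of a tissue share no replicate numbers. The main counts of member calls, in which a gene called on both diets or in both strains counts once for each, were 2 for diet, 1 for strain and 0 for diet by strain in liver, 2, 3 and 0 in muscle, and 0 for strain in fat. With the array spread as a covariate, they were 0 for diet and 0 for strain in liver and in muscle, and 1 for strain in fat. With the Gapdh signal as a covariate, they were 1 for diet and 1 for diet by strain in liver, 1 for diet by strain in muscle and 3 for strain in fat. Without the dimmest 1 in 3 genes, they were 1 for diet by strain in liver and 1 for diet in muscle. With specific probe sets or only the 2 groups compared, they were 0 for strain in liver, and with only the 2 groups 3 for strain in fat. Without arrays above 2 or above 3 in the Gapdh signal, they were 3 for strain and 1 for diet by strain in liver. In fat both limits left a single 129S6 high-fat array, and in muscle the limit of 2 left a single B6 high-fat array. The fat run with all B6 arrays held a single 129S6 array, so no counts are given for these fits. The 3 calls in fat with the Gapdh covariate were on Nnat on both diets and Peg3 on low fat. The strain counts in fat include Nnat, whose fat values chose the genes, so they are no test of Nnat. Shares of all genes called in these alternative fits are not given, so the counts are not set against a background. Leaving out each array gave 1 to 2 for diet, 1 to 3 for strain and 0 to 1 for diet by strain in liver, 0 to 2, 0 to 4 and 0 to 1 in muscle, and 0 to 3 for strain in fat. The 3 in fat came without B6 high-fat replicate 7, the 3 in liver without 129S6 low-fat replicate 11, and the 0 in muscle without B6 low-fat replicate 13 (diet) and without B6 high-fat replicate 6 or 129S6 high-fat replicate 4 (strain). Counts also moved by over 1.5 times without 129S6 low-fat replicate 12 (strain) or B6 low-fat replicate 1 or 129S6 low-fat replicate 11 (diet by strain) in liver. In muscle they did so for diet without replicate 14 of the B6 low-fat group, replicate 6 of the B6 high-fat group or replicates 3 or 4 of the 129S6 high-fat group, and without B6 high-fat replicate 7 or 129S6 high-fat replicate 3 (strain), or B6 high-fat replicate 5 or 129S6 low-fat replicate 9 (diet by strain).

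The Nnat diet difference in 129S6 fat was -2.66 with the Gapdh covariate and -2.49 without arrays above 2 or 3, and -4.39 to -3.16 leaving out each array; in B6 fat that range was -3.31 to -2.63. The Mest difference in B6 fat was -0.17 without arrays above 2, and 0.10 to 0.79 leaving out each array. In 129S6 fat it was 1.07 with the Gapdh covariate, and 1.61 to 1.85 leaving out each array. The Peg3 strain difference in high-fat muscle was -0.40 with its specific probe set. The Dlk1 call in liver was lost in 5 of 16 fits that left out an array, without B6 low-fat replicates 1, 3 or 4 or B6 high-fat replicates 15 or 16. The cause of these changes was not tested. Signal near background limits Nnat and Mest in liver and muscle, Plagl1 in liver, muscle and fat, and Cdkn1c in liver and fat.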
